A study of Mus musculus with 6 samples.

Results

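The p53 family of transcription factors and its best known target genes were examined in 2 populations of mouse prostate basal cells. The members were Trp63, Trp53 and Trp73, which encode p63, p53 and p73, and the target genes Perp, Cdkn1a, Mdm2, Sfn and Bbc3. All probes carrying one of these 8 gene names were taken, which gave 15 of the 55681 probes on the array. The 3 proteins share a DNA-binding domain and bind similar sites. p53 acts mainly after DNA damage and other stress, through arrest of the cell cycle, DNA repair and cell death. p63 is a defining transcription factor of basal cells in the prostate and in stratified epithelia, and mice without it do not form a prostate. Its gene has alternative promoters, from which TA forms with an N-terminal transactivation domain and DeltaN forms without it are made, and DeltaN forms are the ones known to prevail in basal cells.

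The cells came from the prostates of untreated 6-day-old male FVB/N Tg 11.5kb-GFP mice, in which the s-SHIP promoter drives GFP. After collagenase digestion, cells without the lineage antigens Ter119, CD31 and CD45 and with Sca-1 and CD49f on their surface (LSC cells) were sorted into LSC GFP+ and LSC GFP- cells, so both populations carried the transgene and differed in whether it was on. The transgene is also active in vascular smooth muscle cells of these mice, on which the paper reports little or no Sca-1 and CD49f. There were 3 independent samples of each population, named here by their replicate numbers, and whether several animals were pooled in a sample is not given in the sources used here. RNA was amplified and hybridised in 1 colour, with 1 array per sample, so that the number of arrays limits the precision. Each value below is the log2 signal of a probe relative to the 75th percentile of its array, so that a value of 0 is the level of that percentile and negative values are dimmer probes. Values of different probes do not compare amounts of different RNAs.

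Across the whole array, 36656 to 42128 probes per array were well above background and no spot was saturated. The correlation between arrays lay between 0.961 and 0.985. Of the 37005 probes tested, 2925 (7.9%) had an unadjusted p under 0.05 in limma, 1250 higher and 1675 lower in LSC GFP+ cells, and 1 (0.0027%) passed once p-values were adjusted by Benjamini-Hochberg. When the fit held the replicate number as a block, 2495 probes were higher (6.74%) and 2985 lower (8.07%), and 0 passed after adjustment. Higher calls were 42.7% of all calls, and 53.1% when the median of each array was subtracted in place of its 75th percentile, which moved the median difference of all probes from -0.004 to 0.06. Of 12 basal markers tested, 8 passed an unadjusted p of 0.05, all of them higher in LSC GFP+ cells. Luminal markers had calls in both directions, 2 of 12 higher and 2 of 12 lower. Markers of stroma were lower for 6 of 10 and higher for 2 of 10. The 2 higher were Dcn and Fbln1, with differences of 1.19 and 0.90. The differences of the 6 lower ran from -2.72 for Sparcl1 to -1.21 for Lum. The summed log2 level of the stromal markers lay between 4.68 and 5.02 in LSC GFP+ samples and between 4.79 and 6.18 in LSC GFP- samples. Dcn had the highest mean signal of the list in LSC GFP+ samples (3.70) and weighs most in the sum there. Markers of smooth muscle were lower for 6 of 7, with summed log2 levels of 2.82 to 3.40 against 4.33 to 5.27. None of 4 endothelial, 6 immune or 5 glial and neuronal markers passed an unadjusted p of 0.05 in limma, while with the block 3 of the last list were lower. In LSC GFP- replicate 3 the endothelial Pecam1 was -1.07, against -3.61 to -2.86 in the other samples. Cldn5 there was -1.75, against -3.77 to -2.87, while Tek and Kdr were not highest there. The untested endothelial markers Cdh5, Tie1 and Emcn were also highest in that sample. Of 11 cell cycle markers, 1 was higher, or 4 with the block, and all 11 differences were above 0. Immediate early and heat shock genes, which respond to tissue dissociation, were higher for 6 of 9, or 9 of 9 with the block, with summed log2 levels of 8.61 to 9.06 against 7.78 to 8.34. In sorted bulk samples, fewer cells of a type and less RNA per cell cannot be told apart, and the part that these markers have in the results below was not tested.

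The probe positions show where along each gene the signal was measured, which matters most for Trp63, whose 4 probes lie up to 70.7 kb apart on chromosome 16. Positions are those of the array design on mm9, on the plus strand for Trp63, and probes are numbered from the 5′ side. Each of the probes is 60 bases long, and the first 30 bases are printed except for probe 3, printed whole, where capitals mark a run of 6 CAG triplets.
Trp63 probe 1 (A_55_P1952056, chr16:25821344-25821403): acttaccatgtgtcctggctatagcttttc
Trp63 probe 2 (A_52_P338796, chr16:25867718-25867777): cagtcccatataccatgcacttaactcttt
Trp63 probe 3 (A_55_P2161055, chr16:25871159-25871218): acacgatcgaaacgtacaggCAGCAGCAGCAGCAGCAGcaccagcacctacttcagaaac
Trp63 probe 4 (A_51_P216550, chr16:25892012-25892071): caaaaggtactttcttatagacatgatact
Probes 1 and 2 are annotated in the array files to cDNA clones and probes 3 and 4 to RefSeq transcripts of Trp63. Measured from probe 1, probe 2 lies 46.4 kb, probe 3 lies 49.8 kb and probe 4 lies 70.7 kb downstream. The starts of the TA and DeltaN forms and the exons were not placed, since no annotation of mm9 was used here, so the probes are named by their order and not by isoform. The files list up to 4 accessions for a probe, which do not separate the isoforms.

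The Trp63 probes gave different values. The most 3′ probe was 1.54-fold higher in LSC GFP+ cells, the repeat-bearing probe 3 was nearly level, and the most 5′ probe had a lower mean in LSC GFP+ cells. At probe 4, the log2 signal was 3.72, 4.05 and 3.86 in LSC GFP+ replicates 1, 2 and 3 and 3.12, 3.28 and 3.36 in LSC GFP- replicates 1, 2 and 3. All LSC GFP+ samples were above all LSC GFP- samples. The difference was 0.62 on the log2 scale (SE 0.19, 95% interval 0.18 to 1.07), with an unadjusted p of 0.0124 and an adjusted p of 0.374 in limma over all probes tested. Without LSC GFP- replicate 1 the difference was 0.56 with an unadjusted p of 0.0558. At probe 3, the log2 signal was 6.84, 6.62 and 6.66 in LSC GFP+ cells and 6.66, 6.59 and 6.54 in LSC GFP- cells. The groups overlapped, and the spread within each population was small, with a mean of 6.71 ± 0.12 (SD, n = 3) for LSC GFP+ and 6.60 ± 0.06 (SD, n = 3) for LSC GFP-. The difference of 0.11 (95% interval -0.31 to 0.53) had an unadjusted p of 0.577 in limma, and with quantile normalization it was -0.03. Counting this one, 3 probes on the array carry a CAG run at least as long, and none of those passed an unadjusted p of 0.05 in limma. So few probes cannot show whether the run affects the signal of probe 3, which was not tested.

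At Trp63 probe 1, the log2 signal was -2.70, -3.73 and -3.56 in LSC GFP+ cells and -3.17, -2.17 and -2.44 in LSC GFP- cells. This probe was well above background on all 6 arrays. Replicate 1 went against the others, since its LSC GFP+ sample was above its LSC GFP- sample by 0.47 while the other pairs differed by -1.56 and -1.12. The difference was -0.73 (SE 0.36, 95% interval -1.56 to 0.09) with an unadjusted p of 0.0743 in limma. Without LSC GFP+ replicate 1 it was -1.05 with an unadjusted p of 0.0145, and without LSC GFP- replicate 1 it was -1.02 with an unadjusted p of 0.0227. With any other array left out it lay between -0.66 and -0.52 with an unadjusted p of 0.155 to 0.224, and under normexp background correction it was -0.33. Probe 2 was well above background on 1 LSC GFP+ array and on no LSC GFP- array and was not tested. Its log2 signal was -3.50, -4.52 and -5.11 in LSC GFP+ cells and -4.69, -4.60 and -6.24 in LSC GFP- cells, which overlapped.

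**Figure D1:**
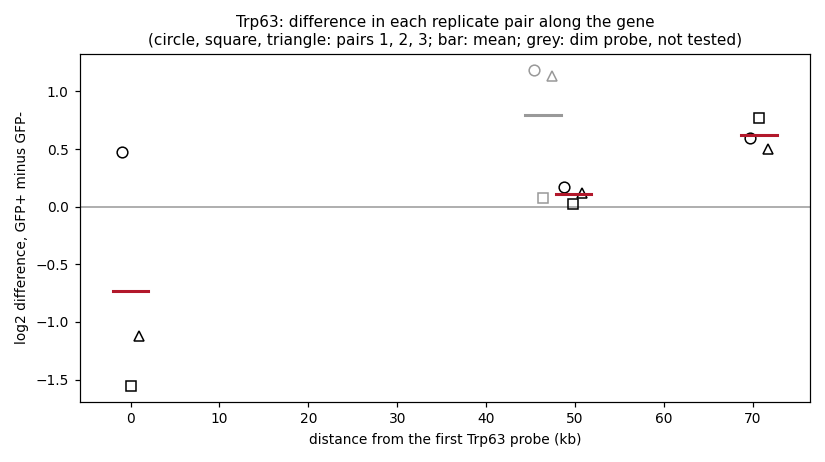
Log2 difference of LSC GFP+ minus LSC GFP- at the 4 Trp63 probes, against distance in kb from probe 1. Points are the 3 replicate pairs, shifted sideways for visibility, and bars are their means. The mean is -0.73 at probe 1, 0.11 at probe 3 and 0.62 at probe 4, and all 3 pairs are above 0 at probes 3 and 4. Grey marks probe 2, which was not tested.

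Whether the Trp63 probes shifted unequally was tested, without pairing, within each array, where the scaling of the array cancels. The log2 difference of probe 4 minus probe 1 was 6.42, 7.78 and 7.42 in LSC GFP+ samples and 6.29, 5.45 and 5.80 in LSC GFP- samples, without overlap. The shift between the populations was 1.36, with an exact two-sided permutation p of 0.1, the smallest that 3 against 3 allows, and 0.15 after adjustment over the 3 contrasts. Probe 4 minus probe 3 was -3.12, -2.56 and -2.80 in LSC GFP+ samples and -3.54, -3.31 and -3.18 in LSC GFP- samples, again without overlap. That shift was 0.52, with an exact permutation p of 0.1 and an adjusted p of 0.15. Probe 3 minus probe 1 shifted by 0.84 with overlap and an exact permutation p of 0.2, which was also its adjusted p. None of the contrasts passed 0.05, which this exact test cannot reach with 3 samples against 3, so an unequal shift of the probes was not shown. Averaged over the 3 tested probes, Trp63 differed by -0.001 (p of 0.996 in limma), so the summary of this gene depends on which probe is read.

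The other family members had fewer probes. The single Trp53 probe, measured in 2 spots per array, is printed whole and holds no stop codon in 2 of its 3 reading frames, and the Trp73 probes lie on the minus strand, probes 2 and 3 at 2.6 kb and 2.65 kb upstream of probe 1 in the direction of transcription.
Trp53 (A_55_P1968068, chr11:69404204-69404263, plus strand): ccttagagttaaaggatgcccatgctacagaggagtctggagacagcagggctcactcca
Trp73 probe 1 (A_52_P193555, chr4:153430443-153430502): caagcagtattgatggatacagtctagtga
Trp73 probe 2 (A_52_P410636, chr4:153433043-153433102): tgaggaacgtaccttcttctcctgtccttc
Trp73 probe 3 (A_55_P1988133, chr4:153433098-153433157): ctgcaagtcccgtaagcagcccatcaaaga
Trp53 transcript was 1.51-fold higher in LSC GFP+ cells. Its log2 signal was 2.84, 2.89 and 3.20 in LSC GFP+ cells and 2.28, 2.10 and 2.77 in LSC GFP- cells, so the groups did not overlap, although the lowest LSC GFP+ sample was only 0.08 above the highest LSC GFP- sample. The spots of this probe differed by an SD of 0.02 to 0.14 within an array, less than the spread between samples. The difference was 0.60 (SE 0.24, 95% interval 0.05 to 1.15), with an unadjusted p of 0.0371 and an adjusted p of 0.572 in limma. It was above 0 in all pairs, at 0.57, 0.79 and 0.43. The call at an unadjusted p under 0.05 did not survive the loss of any of 4 arrays, the difference being 0.54 without replicate 1 of LSC GFP-, 0.64 without replicate 2 of LSC GFP+, 0.46 without replicate 2 of LSC GFP- and 0.49 without replicate 3 of LSC GFP+. The methods' t-test gave these values a p of 0.0595.

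Trp73 did not differ detectably at either tested probe. At probe 2, the log2 signal was -0.60, -0.07 and -1.30 in LSC GFP+ cells and -0.63, 0.12 and -1.49 in LSC GFP- cells, and both populations covered nearly the same range. Its difference was 0.01, and the 95% interval of -1.04 to 1.06 leaves changes of about a doubling in either direction within the error. At probe 3, the log2 signal was -1.65, -2.65 and -2.17 in LSC GFP+ cells and -1.98, -2.17 and -2.13 in LSC GFP- cells, with a difference of -0.06 (95% interval -0.69 to 0.57). Probe 1 gave a different picture but was dim. It was well above background on 2 LSC GFP+ arrays and on no LSC GFP- array and was not tested. Its log2 signal was -3.48, -3.07 and -4.24 in LSC GFP+ cells and -5.24, -4.73 and -6.55 in LSC GFP- cells, without overlap and at least 1.80-fold higher in LSC GFP+ cells. This bound sets the mean of LSC GFP+ cells against the lowest signal well above background on each LSC GFP- array, or against the probe's own signal where that was higher, and 1 of the LSC GFP+ values in it was not well above background. Where the filter let in probes measured on at least 1 array, the fitted difference was 1.91. The probe passed that filter only through LSC GFP+ arrays, where its signal was higher. Neither this fit nor the bound therefore counts as support for a difference.

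The shared target genes were measured by 1 probe each, except Cdkn1a with 3. Their probes are given so that the measured positions are known, and for Cdkn1a because probe 1 lies 9.39 kb upstream of probe 3.
Perp (A_51_P317941, chr10:18576697-18576756, plus strand): gaaaatttgggaatgcgtgtctctgaatac
Cdkn1a probe 1 (A_55_P1986282, chr17:29227986-29228045, plus strand): aatggagacagagaccccagataattaagg
Cdkn1a probe 3 (A_51_P363947, chr17:29237377-29237436, plus strand): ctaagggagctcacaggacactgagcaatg
Mdm2 (A_55_P1975475, chr10:117126010-117126069, minus strand): ggcagcttcagtcccgatttacaataaagt
Sfn (A_55_P2170514, chr4:133156842-133156901, minus strand): agtccccagtctgcagagaggactaaaacg
Bbc3 (A_51_P248122, chr7:16903403-16903462, plus strand): tgggagcggggagggacggcccagcctgta
Perp encodes a membrane protein of desmosomes and is a target of both p53 and p63. Perp gave a log2 signal of 5.22, 5.69 and 5.87 in LSC GFP+ cells and 5.04, 5.07 and 5.53 in LSC GFP- cells. LSC GFP+ replicate 1 lay below LSC GFP- replicate 3, but each LSC GFP+ sample was above the LSC GFP- sample of its number, by 0.18, 0.63 and 0.34. The difference was 0.38 (95% interval -0.20 to 0.96), with an unadjusted p of 0.166 and an adjusted p of 0.873 in limma. With 1 array left out it ran from 0.24 without LSC GFP+ replicate 3 (unadjusted p of 0.409) to 0.57 without LSC GFP+ replicate 1 (unadjusted p of 0.0498).

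Cdkn1a encodes a cyclin-dependent kinase inhibitor and is the classical p53 target of cell cycle arrest. At probe 3, spotted 10 times on each array, the log2 signal was -0.01, 0.26 and 1.04 in LSC GFP+ cells and 0.13, -0.02 and 0.54 in LSC GFP- cells. The spots differed by an SD of 0.05 to 0.12, less than the spread between samples, and replicate 3 was the highest in both populations. The difference was 0.21 (95% interval -0.50 to 0.93) with an unadjusted p of 0.510 in limma. At probe 1, the log2 signal was -4.12, -3.70 and -3.68 in LSC GFP+ cells and -4.35, -3.70 and -2.99 in LSC GFP- cells, and the difference was -0.15. This dim probe was well above background on 3 LSC GFP+ arrays and on 2 LSC GFP- arrays. Probe 2 (A_55_P1976204, chr17:29235299-29235358) gave -2.77, -2.94 and -3.48 in LSC GFP+ cells and -3.23, -2.83 and -2.83 in LSC GFP- cells, with a difference of -0.10. All 3 probes overlapped between the populations, and their mean difference was -0.01.

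Mdm2 encodes the ubiquitin ligase that turns over p53 and is itself switched on by p53. For Mdm2 the log2 signal was 1.33, 1.40 and 1.02 in LSC GFP+ cells and 1.04, 1.16 and 0.99 in LSC GFP- cells, with a difference of 0.19 (95% interval -0.27 to 0.64). Sfn encodes stratifin, an epithelial phosphoserine-binding protein that holds cells before mitosis. For Sfn the log2 signal was -1.02, -0.75 and -0.29 in LSC GFP+ cells and -1.13, -1.06 and -0.38 in LSC GFP- cells, with a difference of 0.17 (95% interval -0.49 to 0.83). Bbc3 encodes PUMA, a BH3-only protein that starts cell death. For Bbc3 the log2 signal was 1.80, 1.90 and 1.87 in LSC GFP+ cells and 1.62, 1.50 and 1.82 in LSC GFP- cells, with a difference of 0.21 (95% interval -0.22 to 0.65). The populations overlapped for each of these genes. Their unadjusted p was 0.371, 0.575 and 0.288 in limma, for Mdm2, Sfn and Bbc3 in this order.

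**Figure D2:**
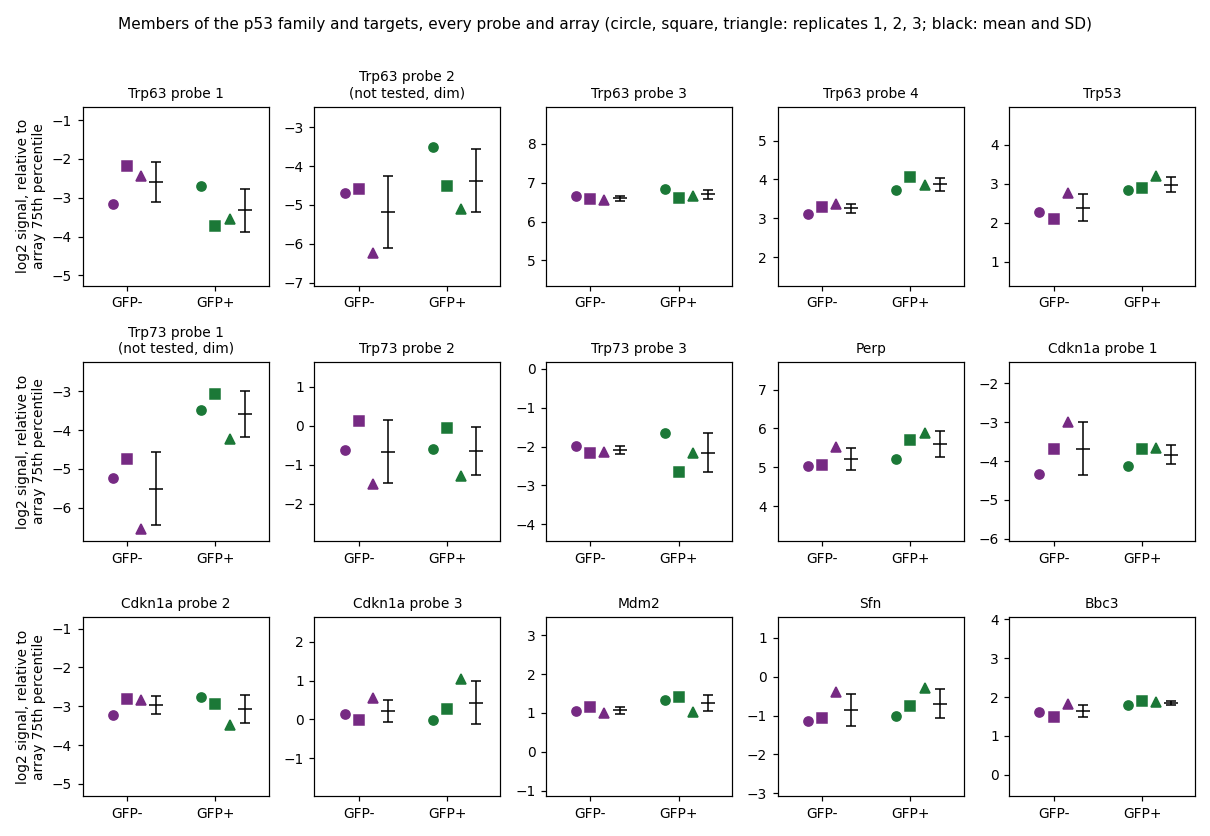
Log2 signal relative to the 75th percentile of the array for all 15 member probes, in LSC GFP- (purple) and LSC GFP+ (green) samples. Symbols mark replicates 1, 2 and 3, and black bars are the mean and SD of 3 samples. All panels span the same number of log2 units. Of the tested probes, Trp63 probe 4 and Trp53 are without overlap.

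Of the 15 member probes, 13 were tested and 2 were too dim. Both probes called at an unadjusted p under 0.05, Trp63 probe 4 and Trp53, were higher in LSC GFP+ cells, which is 15.4% of those tested against 3.38% of all probes tested in that direction, and none was lower against 4.53% of all probes. The study had already named Trp63 as enriched in LSC GFP+ cells of these samples, so its call is no independent evidence. The calls of both probes were also made with the replicate block. These probes alone of those tested were without overlap, against 6.61% of all probes with LSC GFP+ wholly higher and 5.66% with LSC GFP+ wholly lower. None passed after adjustment in limma, where the smallest adjusted p of a member was 0.374, and the methods' t-test called 1 of them without adjustment. Without LSC GFP- replicate 1 none was higher at an unadjusted p under 0.05 and Trp63 probe 1 was lower. The difference was above 0 for 9 of 13 probes, against 49.4% of all probes, with a median of 0.17 against -0.004. By replicate number, 7 probes were higher in all pairs, none was lower in all pairs and 6 were mixed, where 21.4% of all probes were higher and 17.1% lower in all pairs. The 7 were Trp63 probes 3 and 4 and the probes of Trp53, Perp, Mdm2, Sfn and Bbc3. Probes of 1 gene are not counted as independent, and whether they measure the same transcript was not established.

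**Figure D3:**
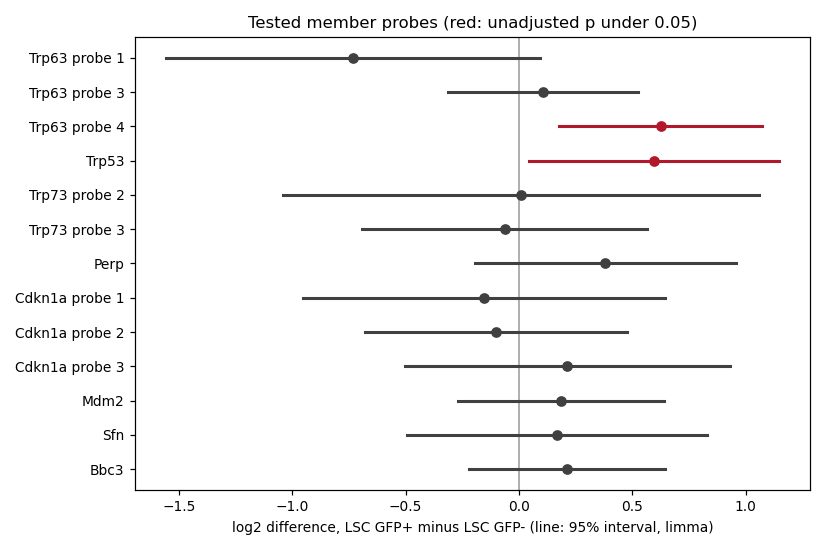
Log2 difference of LSC GFP+ minus LSC GFP- for the 13 tested member probes, with 95% intervals from limma, 3 samples per population. Red marks an unadjusted p under 0.05. The intervals of Trp63 probe 4 (0.18 to 1.07) and Trp53 (0.05 to 1.15) lie above 0 and all others include 0.

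The wider pathway was read from 5 lists of regulators and targets, each gene by its brightest probe, with 105 distinct genes of which 100 were tested. At an unadjusted p under 0.05, 25 of these were higher in LSC GFP+ cells and none was lower, and limma left none after adjustment. Over all 25598 genes read in this way 7.66% were called, 865 (3.38%) higher and 1095 (4.28%) lower, 49% of the differences were above 0, and the median was -0.007.

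Genes known as p63 targets in stratified and basal epithelium held most of these calls. Of 34 such genes 33 were tested, and 16 were higher (48.5%) with none lower. The median difference was 0.42, and 30 of 33 differences were above 0. For 18 genes all LSC GFP+ samples lay above all LSC GFP- samples, and for none below, where over all genes this was so for 6.5% and 5.37%. With the replicate block 17 were higher and 1 was lower, Satb1, which encodes a chromatin organiser and had a difference of -0.39. The list shares 9 genes with the basal markers, which is 26.5% of this list and 69.2% of the markers. Apart from those, 11 of 24 tested genes were higher, with a median of 0.41. The list also holds genes that the study had picked from these samples, such as Krt5 and Krt14, whose direction is therefore no independent evidence.

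The 4 p63 targets with the largest difference among those called were Dsc3, Pkp1, Krt14 and Tfap2c. Dsc3, a desmosomal cadherin, had a log2 signal of 0.68, 0.85 and 0.37 in LSC GFP+ cells and -1.83, -1.22 and -1.20 in LSC GFP- cells, a difference of 2.05 (SE 0.25, adjusted p of 0.0699 in limma). Pkp1, which encodes the desmosomal plaque protein plakophilin, had 2.23, 2.51 and 2.07 in LSC GFP+ cells and 0.72, 0.53 and 0.63 in LSC GFP- cells, a difference of 1.65 (SE 0.20, adjusted p of 0.0699 in limma). Both genes separated the populations by far more than the spread within them. Krt14, a keratin of basal cells, had 4.84, 5.16 and 5.30 against 3.91, 3.68 and 4.18, a difference of 1.18 (SE 0.22, adjusted p of 0.135 in limma). Tfap2c, a transcription factor of epidermal progenitors, had 3.06, 3.46 and 2.98 against 2.13, 2.04 and 1.98, a difference of 1.12 (SE 0.21, adjusted p of 0.129 in limma). Itga6, the gene of the sort antigen CD49f, was named for the gate. LSC GFP+ cells had 3.67 ± 0.23 (SD, n = 3) and LSC GFP- cells 3.42 ± 0.22 (SD, n = 3), with overlap and an unadjusted p of 0.289 in limma.

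Targets of p53 in the cell cycle and in repair were higher for 6 of 23 tested genes (26.1%), lower for none, with a median of 0.31, and with the replicate block 9 were higher. Thbs1, which encodes the matrix protein thrombospondin and is known as an inhibitor of angiogenesis, had 1.90, 1.78 and 1.20 in LSC GFP+ cells and 0.68, -0.10 and 0.30 in LSC GFP- cells, and the difference of 1.34 had an unadjusted p of 0.00156. Igfbp3, a binding protein of insulin-like growth factors, had -0.64, -0.62 and -0.46 against -1.27, -2.30 and -1.84, a difference of 1.23 with an unadjusted p of 0.00232. Both encode secreted proteins rather than parts of the cell cycle machinery. Gadd45a, a stress-response gene of growth arrest and DNA repair, had 3.09, 3.06 and 3.00 against 2.58, 2.22 and 2.47, a difference of 0.63 with an unadjusted p of 0.0112. Btg2, an antiproliferative gene, differed by 0.61 with an unadjusted p of 0.0325, and Sesn2, a stress-responsive sestrin, differed by 0.47 with an unadjusted p of 0.0322. None of the genes named here overlapped between the populations. The count was 3 without LSC GFP+ replicate 2 and 2 without LSC GFP- replicate 2.

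Targets of p53 in cell death gave 0 of 15 tested genes at an unadjusted p under 0.05 in limma, in either direction. Their median was 0.21 with 13 of 15 above 0, and it was 0.10 without LSC GFP- replicate 1 and also without LSC GFP+ replicate 2, and 0.099 without LSC GFP+ replicate 3. The largest difference was that of Bid, a BH3-only gene, at 0.55 with an unadjusted p of 0.0548, or 0.0409 with the replicate block, where it was the only call. The lowest was that of Aifm2 at -0.43 with an unadjusted p of 0.105. Bax, which permeabilises mitochondria, differed by 0.02, and Pmaip1, which encodes NOXA, by -0.08. Bid, Aifm2, Bax and Pmaip1 were chosen after their values were seen. That the cell death list had no call and the cell cycle and repair list had 6 was not tested as a difference.

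Regulators of the family were read in the same way. Of 23 tested regulators of p53, 2 were higher and none was lower, with a median of 0.16 and 20 of 23 above 0. Sirt1, a deacetylase that acts on p53, had 1.03, 0.66 and 0.66 in LSC GFP+ cells and 0.35, 0.30 and 0.27 in LSC GFP- cells, and the difference of 0.48 had an unadjusted p of 0.0409. Ppp1r13l, which encodes the p53 inhibitor iASPP and is also on the list of p63 and p73 regulators, differed by 0.58 with overlap and an unadjusted p of 0.0499. On that second list 2 of 15 were higher and none was lower, with a median of 0.14. The other call was Fbxw7, the substrate-binding part of a ubiquitin ligase, which had 1.54, 1.80 and 1.54 in LSC GFP+ cells and 1.09, 1.18 and 0.66 in LSC GFP- cells, and the difference of 0.65 had an unadjusted p of 0.0182. Both lists gave 1 call or 0 under several other settings.

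**Figure D4:**
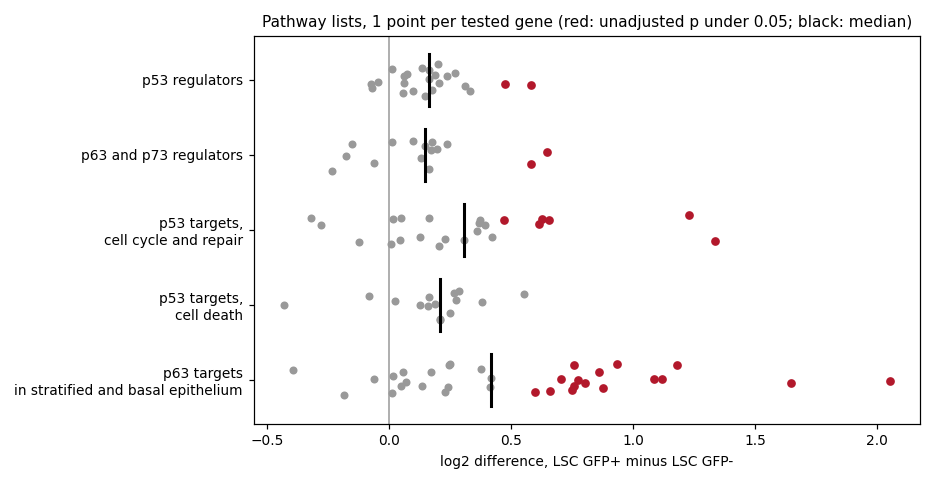
Log2 difference of LSC GFP+ minus LSC GFP- for each tested gene of the 5 pathway lists, 1 point per gene. Red points have an unadjusted p under 0.05 and black bars are medians, which run from 0.14 for the p63 and p73 regulators to 0.42 for the p63 targets.

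The genes whose pattern over the 6 arrays was most like that of 2 members were looked up among the 33845 probes that every array measured well above background. For Trp63 probe 3 they were Per2 (Pearson r of 0.999), Cacna1c (0.998) and Adamts17 (0.990). For Perp they were Lin7c (0.999), Ipo5 (0.999) and Carhsp1 (0.997). These rest on 6 arrays of both populations and are a description with no test. They are the highest of 33845 probes, and such a choice alone can give a high r over 6 arrays.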

How the data were processed

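RNA of 3 LSC GFP+ and 3 LSC GFP- samples was amplified, labelled with Cy3 and hybridised to Agilent SurePrint G3 Mouse GE arrays of 1 slide, scanned on 1 day, so slide and scan could not be tested as batches. The authors deposited Agilent Feature Extraction files with the processed signal intensity of each spot (version 11.0.1.1 per the file headers, 10.7.3.1 in the submitters' processing notes), and a table of the same intensity values rounded to 3 digits. Probe positions are those of the array design (mm9). From the files, log2 processed signal minus the 75th percentile of each array was computed. Outlier spots (123 to 154 per array) were left out and spots of a probe averaged. A probe was tested if each of the 3 arrays of either population measured it well above background (37005 probes). The test was limma 3.58.1 in R 4.3.3, checked on simulated data, without a block since the methods name Student's t-test and no pairing. Two-sided p-values were adjusted over all probes tested (Benjamini-Hochberg). The limma p-values set the difference between the populations against the spread between samples, which limma shares in part across probes. Other background correction, scaling, filters and tests, the replicate block and each array left out were tried.

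The replicate numbers come from the labels. Deviations from the population means correlated between samples of the same number (r of 0.433, 0.277 and 0.668), each over 0.1, so the fit with the number as a block is given where it changes a call. Between samples of different numbers r ran from -0.547 to 0.223. The value of 0.223, for LSC GFP+ replicate 1 and LSC GFP- replicate 2, was also over 0.1. All p-values and intervals are unpaired unless the block is named. All member probes are reported. Of each pathway list, up to 4 genes with the largest difference at an unadjusted p under 0.05 are named, with any rest of 5 or fewer. Some genes that this rule names are not reported here. Members, lists and tests were chosen with earlier results of these data known.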

Additional observations from a re-analysis of the deposited data

How the results depend on the processing

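Under the other settings, 186 of 207 member probe values kept their direction and side of an unadjusted p of 0.05, and no member probe passed after adjustment under any of them. The other filters, the other tests and the block left the difference of a probe as it was, so only its p could move there. With the replicate number as a block, calls over all probes rose to 2495 higher and 2985 lower, with 0 after adjustment, and 1 p53 target of cell death was higher and 1 p63 target was lower. The block changed no call of a member probe. When each array was left out in turn, all probes gave 877 to 1378 higher and 1169 to 2795 lower calls (the last without LSC GFP+ replicate 1) and 0 to 3 after adjustment. Calls after adjustment were 0 under normexp, under each other filter, and in the methods' t-test and limma with an intensity trend, and 3 under quantile and median scaling. Member probes higher were 1 in the t-test and 3 with the filter of at least 1 array, where Trp73 probe 1 joined. Without a filter they were 2, where Trp73 probe 1 took the place of Trp53 (unadjusted p of 0.0532 in limma). Trp73 probe 1 was well above background on LSC GFP+ arrays only, so its calls are no support for a difference. With an array left out, member probes higher were 0 to 3 and lower 0 to 1. Regulators of p53 gave 1 call under normexp, quantile and median scaling, the rounded table, the filter of at least 1 array and the trend, 0 without a filter, and 0 to 1 with an array left out. Regulators of p63 and p73 gave 1 under those and without a filter, and 0 to 2 with an array left out. Cell cycle and repair targets gave 2 to 5 with an array left out. Cell death targets gave 1 higher under quantile and median scaling and the filter of all 6 arrays, 0 to 1 higher and 0 to 1 lower with an array left out, and p63 targets 14 to 17 higher and 0 to 1 lower. The list medians with an array left out ran from 0.11 to 0.18 for p53 regulators, 0.11 to 0.19 for p63 and p73 regulators, 0.22 to 0.36 for cell cycle and repair, 0.099 to 0.26 for cell death and 0.36 to 0.58 for p63 targets.

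The direction reversed for Trp63 probe 3 (-0.028) and Trp73 probe 3 (0.016) under quantile scaling, and for Trp73 probe 3 (0.0051) under median scaling. With an array left out, the difference ran from -0.40 to 0.40 for Trp73 probe 2, -0.32 to 0.18 for Trp73 probe 3, -0.49 to 0.19 for Cdkn1a probe 1, -0.25 to 0.10 for Cdkn1a probe 2, -0.094 to 0.44 for Cdkn1a probe 3 and -0.029 to 0.41 for Sfn. The mean over the tested probes of a gene in place of its brightest probe gave -0.00094 for Trp63, -0.027 for Trp73 and -0.014 for Cdkn1a. None of these values had an unadjusted p under 0.05, and the cause was not tested.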
